A study of Mus musculus with 6 samples.

Results

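The DNA replication machinery was followed as 52 genes among the 23942 of the deposited table. These were replication factors taken by symbol and known function, with earlier results of these data already known. They cover origin licensing and the helicase (16 genes), the polymerases with the sliding clamp and the proteins around it (19 genes), fork protection (3 genes), nucleotide supply (5 genes), chromatin assembly behind the fork (5 genes), and regulators of S phase entry (4 genes). All 52 were in the table. Bulk RNA sequencing had been done on 6 libraries of liver ILC1s (group 1 innate lymphoid cells), resident lymphocytes that are kin to natural killer (NK) cells. The mice's livers gave 3 libraries of naive cells, treated with solvent and marked day 0, and 3 libraries of memory cells, treated with an agent labelled OXA and marked day 30. The sources used here do not say what OXA stands for, how the cells were sorted, or the strain, age and number of the mice. Since day changes with treatment, effects of the one and the other cannot be told apart, and as the labels name no separate animals, p-values cover only library-to-library spread, which may be technical.

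DNA is copied once per cell cycle. In G1 the origin recognition complex, with CDC6 and CDT1, loads the ring of MCM2 to MCM7 onto origins. In S phase CDC45 and the GINS complex join that ring into an active helicase, polymerases copy both strands on the clamp PCNA, and CAF-1 places histones on the new DNA. Many of these genes are switched on together late in G1 by E2F transcription factors, and resting lymphocytes keep most of them low.

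Bases before the start that RefSeq annotates are printed for 5 genes that were lower in memory ILC1s. Mcm6, Mcm5 and Cdc6 are shown because the letters of an E2F site, in capitals, lie there. Chaf1a and Mcm3 are shown as genes with a small adjusted p in the test described below and without those exact letters in the printed bases. Other forms of an E2F site were not searched, so these are not shown to lack one. Mcm3 has matches after its start, given below. The sequences are RefSeq's on build GRCm38.p6 (mm10), written 5′ to 3′ on the gene's strand and ending at the base before the start. Each has up to 180 bases, without bases that GENCODE M21 places in an exon. For Cdc6 the deposited table begins the gene further upstream, at 98907801, so the printed stretch lies inside the table's gene span, outside GENCODE's exons and before RefSeq's start.
Mcm6, chr1:128359706-128359885, minus strand: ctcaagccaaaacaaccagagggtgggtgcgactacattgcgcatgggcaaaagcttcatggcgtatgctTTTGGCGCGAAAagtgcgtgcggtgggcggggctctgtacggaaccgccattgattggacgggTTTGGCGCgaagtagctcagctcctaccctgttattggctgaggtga
Mcm5, chr8:75109329-75109508, plus strand: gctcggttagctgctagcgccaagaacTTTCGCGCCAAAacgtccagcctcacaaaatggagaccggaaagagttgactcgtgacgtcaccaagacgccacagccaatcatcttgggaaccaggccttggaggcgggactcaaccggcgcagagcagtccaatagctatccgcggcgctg
Cdc6, chr11:98907982-98908150, plus strand: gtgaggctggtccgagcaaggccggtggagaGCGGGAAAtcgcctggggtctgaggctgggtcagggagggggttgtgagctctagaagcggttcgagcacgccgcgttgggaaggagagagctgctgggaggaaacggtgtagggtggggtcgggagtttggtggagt
Chaf1a, chr17:56040236-56040415, plus strand: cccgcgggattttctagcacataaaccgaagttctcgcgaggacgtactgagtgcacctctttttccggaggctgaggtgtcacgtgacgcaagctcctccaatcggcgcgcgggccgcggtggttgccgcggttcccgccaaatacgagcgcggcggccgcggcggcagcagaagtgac
Mcm3, chr1:20820313-20820492, minus strand: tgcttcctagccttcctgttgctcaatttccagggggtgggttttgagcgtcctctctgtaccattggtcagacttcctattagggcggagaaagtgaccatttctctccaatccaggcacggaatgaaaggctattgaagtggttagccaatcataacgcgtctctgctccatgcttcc
The E2F letters searched were TTTCCCGC, TTTCGCGC, TTTGCCGC and TTTGGCGC on either strand, so GCGGGAAA in Cdc6 is the first of them read on the other strand. In Mcm6 and in Mcm5 a pair of matches on opposite strands overlaps and makes 1 capital run.

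Memory ILC1s held less RNA of many of the listed replication genes than naive ILC1s. Across 28 further replication factors, given below, the median log2 change was −0.01. All memory values lay below all naive values in 6 of these 28 and above them in 3. Of the 51 listed genes that could be tested, 15 fell and none rose, the rest not passing the test. The 15 were Mcm2, Mcm3, Mcm4, Mcm5, Mcm6, Mcm7, Mcm10, Cdc6, Pcna, Lig1, Clspn, Tipin, Chaf1a, Hells and Atad2. Their mean level changed by −19.5% (Mcm5) to −60.3% (Cdc6). Levels are RPKM (reads per kilobase of exon scaled to the library's total of assigned reads). The test was limma-trend on log2(RPKM + 1) over the 13793 genes whose mean reached 0.5 RPKM, and a gene fell or rose where its adjusted p (Benjamini-Hochberg over those genes) was under 0.05. Changes are given as memory minus naive on that log2 scale with their standard error (SE), which understates the change of low genes. In bulk libraries, fewer cells that transcribe these genes and less of their RNA per cell cannot be told apart.

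Those 15 genes are 29.4% of the tested replication genes, where 0.972% of all tested genes fell. The replication genes were chosen with earlier results of these data known, so this share and those below describe the list and do not test it. No replication gene rose, also at an unadjusted p under 0.05 and with limma's voom on the recovered reads, where 3.2% of all tested genes rose by limma-trend. The 3 memory values all lay below the 3 naive values in 34 of the 51 genes (66.7%), against 9.24% of all tested genes. The opposite order, memory above naive throughout, held for 0 of the 51, against 14.9% of all tested genes. The change was negative in 46 of the 51 and in 45.4% of all tested genes. The median change over the 51 was −0.28, against 0.02 over all tested genes. Orc1, the gene of the largest subunit of the origin recognition complex, was too low to test, at 0.538, 0.495 and 0.313 RPKM in naive and 0.338, 0.145 and 0.521 RPKM in memory libraries, where the groups overlapped.

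**Figure D1:**
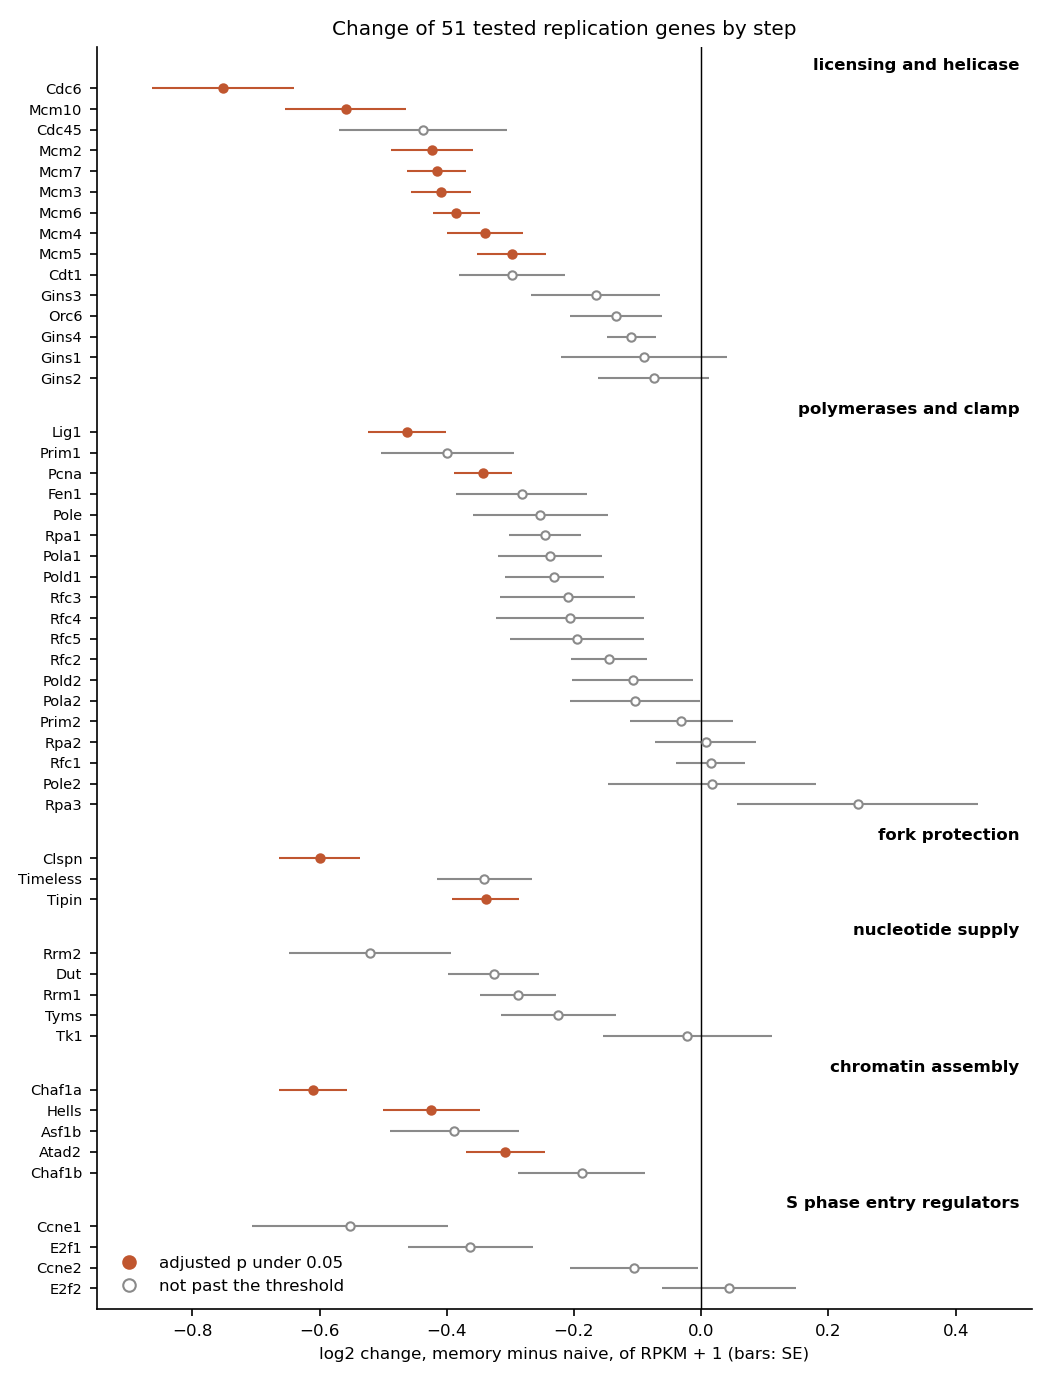
Change of each of the 51 tested replication genes, grouped by step, as the log2 of RPKM + 1 in memory minus that in naive libraries (x axis), with bars of 1 SE from limma-trend over 3 against 3 libraries. Filled points are the 15 genes with an adjusted p under 0.05, all left of 0, and 46 of the 51 points are left of 0.

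Depth was close in all 6 libraries, at 18697093 to 23795266 recovered reads with 18571 to 19349 genes read at least once. A replication gene rested on 12 to 3404 reads per library. The ILC1 markers listed (Ncr1, Klrb1c, Itga1, Tnfsf10, Il7r, Zfp683, Tbx21, Cxcr6 and Cd200r1) were all present, and their sum was 1010 to 1050 RPKM in both groups. Only Cxcr6 among the 9 fell. RNA of genes listed as markers of other cells was not equal between groups. The macrophage and monocyte markers summed to 45.8 to 53.6 RPKM in naive and 480 to 506 RPKM in memory libraries (8 of 10 rose). Most of that sum was Lyz2 (means of 37.77 and 447.6 RPKM). Clec4f rose less (2.881 and 4.679 RPKM), and Vsig4 and Timd4 did not pass (adjusted p = 0.378 and 0.704). The dendritic cell and MHC class II markers summed to 47.4 to 52.1 and 329 to 333 RPKM (5 of 6 rose), and the NK cell markers to 16 to 18.1 and 33.7 to 38.8 RPKM (4 of 7 rose). The NK cell markers that rose were S1pr5, Zeb2, Itgam and Cx3cr1, while Eomes, Itga2 and Klra8 did not pass. Which cells made this RNA was not tested. Hepatocyte markers summed to 24.6 to 26.2 and 36.7 to 38.8 RPKM (2 of 6 rose). Most of that sum was Trf, which did not pass (means of 21.8 and 23.2 RPKM). Endothelial markers summed to 14.8 to 17.1 and 19.5 to 19.9 RPKM, mostly Pecam1 (means of 14.94 and 18.56 RPKM). Pecam1, the only 1 tested, was not called by limma but had an unadjusted p under 0.05 and was called by voom. Neutrophil markers summed to 0.385 to 0.68 and 1.53 to 2.12 RPKM. Csf3r, the only 1 tested, rose (means of 0.17 and 1.546 RPKM). S100a8 and Mpo had means of 0.0927 and 0.0256 RPKM in naive and 0 in memory libraries. S100a9 had means of 0.199 and 0.309 RPKM. T cell markers summed to 308 to 356 and 286 to 309 RPKM (2 of 7 fell) and erythroid ones to 79.0 to 101 and 64.3 to 71.2 RPKM (1 of 4 fell). Most of the T cell sum was Trbc1 (means of 191.8 and 173.7 RPKM in naive and memory libraries) and Trbc2 (99.32 and 90.65 RPKM). Trac was at 1.401 and 0.792 RPKM and Cd3d at 0.654 and 0.8 RPKM, so the sum does not measure T cells. B cell and plasma cell markers, of which 3 of the 6 listed were in the table, summed to between 0.702 and 1.49 RPKM in all 6 libraries. Most of that sum was Cd79b (means of 0.858 and 0.798 RPKM). No listed marker of the table was at 0 in all 6 libraries, and the part of these cells in the replication genes' difference was not tested. With the members and the markers of other cells left out of the scaling total, the same 15 replication genes passed. That step takes only the listed genes out of the total and hardly moves the values, so it is no test of the part of other cells.

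Licensing and helicase genes held 8 of the 15 that fell, out of 15 tested. The change was below 0 in all 15 (median −0.34). Summed over the 16 genes, the level was 237 to 244 RPKM in naive and 188 to 192 RPKM in memory libraries, a change of −20.6%.

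The 6 subunits of the MCM ring, which unwinds DNA at the fork, all fell. Together they summed to 159.7 ± 3.49 RPKM in naive and 121.3 ± 1.07 RPKM in memory libraries (mean ± SD, n = 3 each). Mcm3 (mm10, chromosome 1, 20802968 to 20820312) was the most abundant subunit, at 41.99, 41.65 and 40.18 RPKM in naive and 31.21, 32.17 and 29.22 RPKM in memory libraries. The groups did not overlap, and the change was −0.41 ± 0.047 (SE, adjusted p = 0.00508). Mcm6 (chromosome 1, 128331590 to 128359664), which carries the E2F letters printed above in several places, measured 31.21, 30.8 and 30.74 against 23.1, 23.7 and 23.52 RPKM. This was the tightest of the 6, with an SD of 0.258 RPKM in naive and 0.305 RPKM in memory libraries and a change of −0.39 ± 0.037 (adjusted p = 0.00211). Mcm7 (chromosome 5, 138164583 to 138172422) measured 23.67, 25.07 and 23.42 against 17.46, 18.33 and 17.53 RPKM, with a change of −0.42 ± 0.047 (adjusted p = 0.00446). The miRNA genes Mir25 and Mir93 overlap Mcm7 on the same strand, and 7.3% of its exon bases are shared with Ap4m1 on the other strand, which did not pass the test (5.008 and 5.258 RPKM, adjusted p = 0.792).

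Mcm2, Mcm4 and Mcm5 showed changes of the same kind on less firm ground. Mcm2 (chromosome 6, 88883474 to 88898780) measured 15.81, 17.2 and 17.83 RPKM in naive and 13.17, 12.04 and 11.94 RPKM in memory libraries, a change of −0.42 ± 0.065 (adjusted p = 0.0165). Mcm4 (chromosome 16, 15623897 to 15637400) measured 23.84, 23.31 and 20.87 against 17.53, 17.42 and 18.09 RPKM, a change of −0.34 ± 0.059 (adjusted p = 0.0281). Its naive values spread more widely than its memory values, but all lay above them. Mcm5 (chromosome 8, 75109569 to 75128439) measured 23.24, 25.06 and 23.07 against 19.47, 18.23 and 19.78 RPKM, a change of −0.30 ± 0.054 (adjusted p = 0.0313). Across the ring the mean level changed by −19.5% (Mcm5) to −26.9% (Mcm2). The order of the levels was not flat: Mcm3 stood 2.44 times as high as Mcm2, the lowest subunit, in naive cells and 2.49 times as high in memory cells. Without 1 library, Mcm2 missed the threshold in 4 of 6 fits, Mcm4 in 5 of 6 and Mcm5 in all 6 (adjusted p up to 0.0777, 0.11 and 0.11).

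Among the factors that load and activate the ring, Cdc6 and Mcm10 changed most. Cdc6 (chromosome 11, 98907801 to 98923940), the loader of the MCM ring, measured 2.015, 2.463 and 1.81 RPKM in naive and 0.828, 0.828 and 0.838 RPKM in memory libraries. The memory values were nearly equal to each other and under every naive value, and the change of −0.75 ± 0.112 (adjusted p = 0.0149) was the largest of all replication genes. Mcm10 (chromosome 2, 4989714 to 5012791), which helps to activate the helicase, measured 1.801, 2.09 and 1.993 against 0.973, 1.071 and 0.982 RPKM. Its change was −0.56 ± 0.095 (adjusted p = 0.025), with no overlap. Both rest on few reads, with 87 for Cdc6 and 150 for Mcm10 in their lowest library. Without 1 library, Cdc6 missed the threshold in 5 of 6 fits and Mcm10 in all 6 (adjusted p up to 0.0652 and 0.101).

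CDC45 and the GINS complex complete the helicase. Cdc45 measured 8.787, 6.418 and 9.288 RPKM in naive and 5.204, 5.972 and 5.951 RPKM in memory libraries. The groups did not overlap, but naive replicate 2 lay close to the memory values, and the change of −0.44 ± 0.132 did not pass (adjusted p = 0.148). Gins4, the most abundant uncalled gene of the step, measured 33.38, 34.11 and 32.2 against 30.81, 30.87 and 30.44 RPKM. These groups also stood apart, by a small step of −0.11 ± 0.039 (adjusted p = 0.204). GINS1 to GINS4 form a complex with 1 copy of each, yet Gins4 RNA stood 6.23 times as high as Gins1 RNA in naive and 6.18 times as high in memory cells. Summed GINS RNA was 55.17 ± 0.887 RPKM in naive and 50.77 ± 1.43 RPKM in memory libraries (SD, n = 3 each), with none of the 4 genes passing (limma 0, and 0 by voom). Gins2 shares 67.3% of its exon bases with Gse1 on the other strand, and no source used here gives the counting's strand setting, so reads of the pair could have been shared. Cdt1 and Orc6 also stayed short of the threshold, with changes of −0.30 and −0.13.

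**Figure D2:**
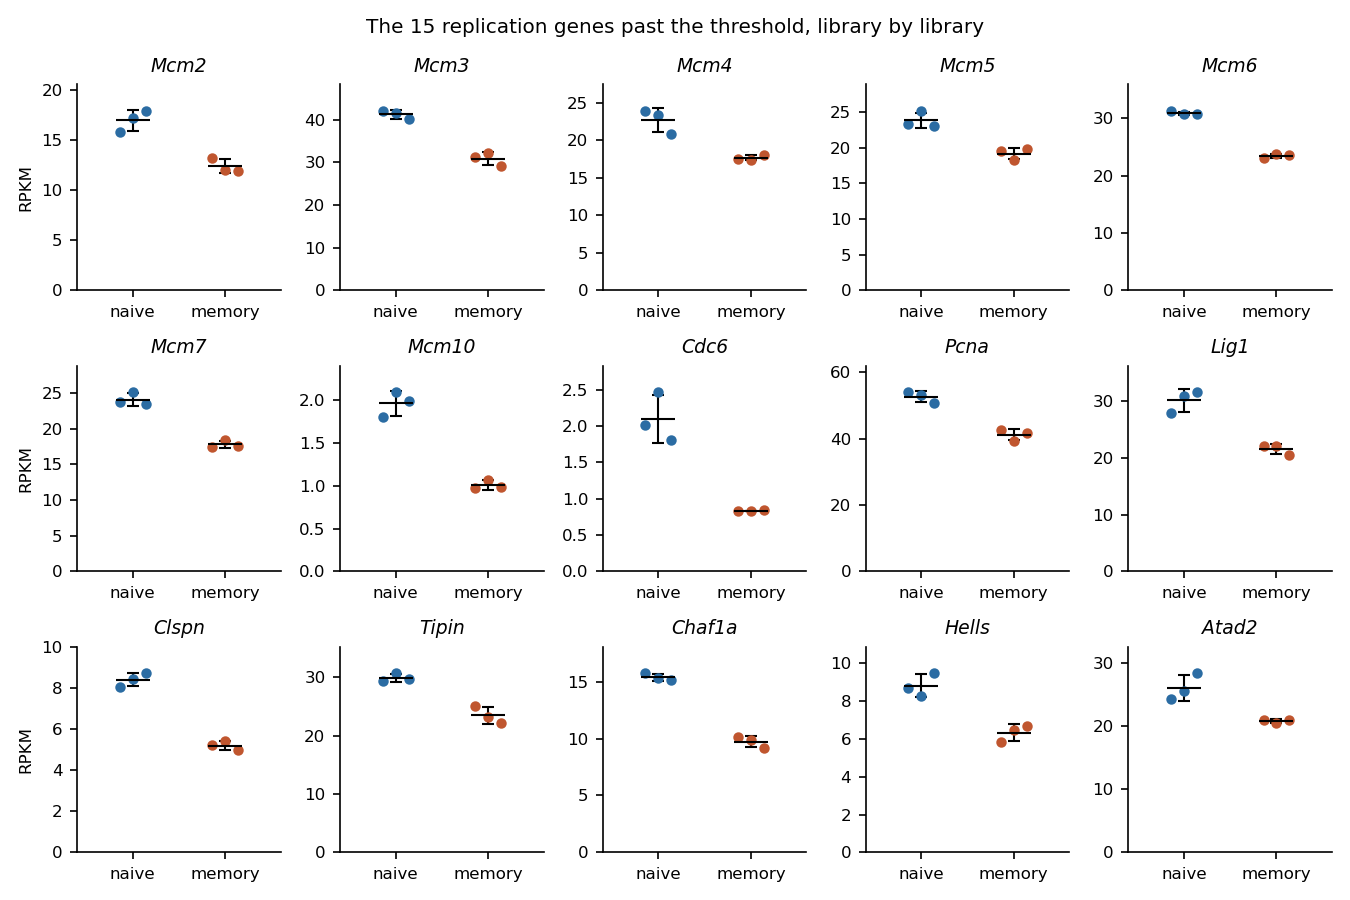
Level (RPKM, y axis from 0) of the 15 replication genes past the threshold in each library, 3 naive (blue) and 3 memory (red), with the group mean and bars of 1 SD. In each of the 15 panels all memory points lie below all naive points.

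Among polymerase and clamp genes, Pcna and Lig1 fell. Of 19 tested, 2 fell, 9 had groups that did not overlap with memory lower, and the change was below 0 in 15 (median −0.21). Their sum was 209 to 218 RPKM in naive and 179 to 187 RPKM in memory libraries, a change of −14.7%. Both genes that fell act on the clamp or on the joining of Okazaki fragments.

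Pcna (chromosome 2, 132249162 to 132253314), the sliding clamp, was the most abundant of the 52 genes. It measured 53.89, 53.01 and 50.67 RPKM in naive and 42.68, 39.33 and 41.6 RPKM in memory libraries, and its change was −0.34 ± 0.046 (adjusted p = 0.00931). Lig1 (chromosome 7, 13277283 to 13311433), the ligase that seals Okazaki fragments, measured 27.92, 31.03 and 31.61 against 22.13, 22.18 and 20.52 RPKM. Neither gene's groups overlapped, and Lig1 had the larger change, −0.46 ± 0.061 (adjusted p = 0.00922). Fen1, the flap nuclease of the same step, had a change of −0.28 that did not pass (adjusted p = 0.219). Of Fen1's exon bases, 78.8% are shared with Gm10143 on the other strand, whose values were 10.06 and 8.143 RPKM in naive and memory cells (adjusted p = 0.178), and reads of the pair cannot be told apart without strand.

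No gene of a polymerase subunit passed the main test. In the polymerase alpha and primase complex, which starts each strand, Prim1 had the largest uncalled change of the step, with 3.706, 4.639 and 3.964 RPKM in naive and 2.665, 2.705 and 3.23 RPKM in memory libraries. Its groups did not overlap, at −0.40 ± 0.104 (adjusted p = 0.0998), while its partner Prim2 stayed at 2.912 and 2.824 RPKM with overlap. Pola1 had a change of −0.24 without overlap and Pola2 one of −0.10 with overlap. The leading strand polymerase's catalytic gene Pole was at 1.797 and 1.353 RPKM (−0.25), and its partner Pole2 at 1.648 and 1.698 RPKM (0.02). None of these 6 genes passed the limma-trend test, and voom on the recovered reads called Prim1, Pola1 and Pole (adjusted p = 0.0162, 0.0225 and 0.0386). Whether partners differed from each other was not tested.

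Replication protein A (RPA) coats single-stranded DNA, and replication factor C (RFC) loads the clamp. Rpa1, the most abundant uncalled gene of the step, measured 18.99, 18.28 and 16.7 RPKM in naive and 15.02, 14.99 and 14.95 RPKM in memory libraries. The groups did not overlap, and the change of −0.25 ± 0.057 came close to the threshold without passing it (adjusted p = 0.0682). Rpa2 and Rpa3 had positive changes of 0.01 and 0.25 with overlapping groups, and Rpa3 spread from 9.29 to 15.58 RPKM within the naive libraries. Summed RPA RNA was therefore close in both groups, at 37.9 ± 4.63 and 37.3 ± 2 RPKM (SD, n = 3 each). The 5 RFC genes summed to 36.06 ± 0.434 and 33.15 ± 1.52 RPKM. Rfc1, the large subunit, was the most abundant of them and had a change of 0.02, and the 4 small subunits ran from −0.14 to −0.21, none passing by limma or by voom. The delta polymerase genes Pold1 and Pold2 had changes of −0.23 and −0.11 (adjusted p = 0.188 and 0.625).

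All 3 fork protection genes stood apart between groups, and 2 fell. Claspin, the product of Clspn (chromosome 4, 126556935 to 126593903), links a stalled fork to the checkpoint kinase CHK1. Clspn measured 8.075, 8.429 and 8.719 RPKM in naive and 5.214, 5.439 and 4.964 RPKM in memory libraries, a change of −0.60 ± 0.063 (adjusted p = 0.00341). Tipin (chromosome 9, 64281581 to 64305424), whose product pairs with TIMELESS at the fork, measured 29.33, 30.64 and 29.73 against 24.98, 23.23 and 22.16 RPKM. The Tipin groups lay far apart for their spread, with a change of −0.34 ± 0.053 (adjusted p = 0.0182), though it missed the threshold in 5 of 6 fits without 1 library (adjusted p up to 0.0831). Timeless measured 9.079, 8.418 and 9.054 against 6.882, 6.165 and 7.324 RPKM and had nearly the same change as Tipin, −0.34 ± 0.075, without passing (adjusted p = 0.0615). The 3 genes summed to 47.16 ± 0.582 and 35.45 ± 1.42 RPKM.

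No nucleotide supply gene passed the main test. Limma-trend called 0 of the 5 in either direction, while 4 of the 5 had an unadjusted p under 0.05. Voom called 3 lower (Rrm1, Rrm2 and Dut), where it called 2.49% of all tested genes lower. The share of all tested genes at an unadjusted p under 0.05 is not given here. Such counts, for this and the other lists, therefore cannot be set against it. Ribonucleotide reductase makes deoxyribonucleotides, and its small subunit gene Rrm2 is the one that cycles with S phase. Rrm2 measured 8.551, 6.831 and 5.892 RPKM in naive and 4.196, 4.838 and 4.745 RPKM in memory libraries, a change of −0.52 ± 0.127 (adjusted p = 0.0812). The naive Rrm2 libraries spread widely, and the lowest of them still lay above all memory libraries. The large subunit gene Rrm1 measured 13.3, 12.27 and 12.39 against 10.78, 9.774 and 10.01 RPKM, a change of −0.29 ± 0.06, just outside the threshold (adjusted p = 0.0516). Dut, which keeps uracil out of DNA, was the most abundant of the 5, at 13.63, 13.22 and 12.65 against 11.33, 9.556 and 10.08 RPKM (−0.33 ± 0.071, adjusted p = 0.061). Groups did not overlap for either gene. Tyms, for thymidylate synthase, was at 2.27 and 1.796 RPKM without overlap, and Tk1, for thymidine kinase, at 2.485 and 2.441 RPKM with overlap.

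Chromatin assembly held the change with the smallest p of the whole machinery. Chaf1a (chromosome 17, 56040416 to 56068026), the large subunit of the histone chaperone CAF-1, measured 15.72, 15.29 and 15.12 RPKM in naive and 10.09, 9.909 and 9.199 RPKM in memory libraries. The groups were far apart for their spread, with a change of −0.61 ± 0.054 (adjusted p = 0.00147). Of its exon bases, 18.7% are shared with Ubxn6 on the other strand, which did not pass (7.769 and 6.085 RPKM, adjusted p = 0.243). Its partner Chaf1b was at 2.214 and 1.825 RPKM with overlap, so Chaf1a RNA stood 6.95 times as high as Chaf1b RNA in naive and 5.33 times as high in memory cells.

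Hells and Atad2 were the other genes of this step that fell. Hells (chromosome 19, 38930915 to 38971051), a chromatin remodeller needed for DNA methylation, measured 8.693, 8.304 and 9.478 RPKM in naive and 5.821, 6.457 and 6.699 RPKM in memory libraries, a change of −0.42 ± 0.076 (adjusted p = 0.0311). Atad2 (chromosome 15, 58094047 to 58135082), a bromodomain ATPase, measured 24.22, 25.55 and 28.35 against 20.96, 20.45 and 20.98 RPKM, a change of −0.31 ± 0.062 (adjusted p = 0.0462). Atad2 was the gene nearest to the threshold from inside, and without 1 library it missed it in 5 of 6 fits and Hells in all 6 (adjusted p up to 0.151 and 0.101). Asf1b, a chaperone that hands histones to CAF-1, measured 3.454, 3.785 and 2.915 against 2.215, 2.481 and 2.327 RPKM. Its groups did not overlap, and the change of −0.39 ± 0.101 did not pass (adjusted p = 0.0992).

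The 4 regulators of S phase entry were all low, at 1.658 to 3.688 RPKM in naive cells, and none passed by limma-trend (2 had a negative change with an unadjusted p under 0.05, and voom called 1, Ccne1). Ccne1, 1 of the cyclin E genes that drive entry into S phase, measured 3.295, 3.047 and 4.231 RPKM in naive and 1.768, 2.7 and 1.817 RPKM in memory libraries. The groups did not overlap, but each held 1 library well above the others, and the change was −0.55 ± 0.154 (adjusted p = 0.118). Ccne2, the other cyclin E gene, measured 3.474, 3.854 and 3.737 against 3.892, 3.283 and 2.941 RPKM, with memory replicate 1 above every naive library (−0.11 ± 0.101, adjusted p = 0.654). E2f1 was at 2.574 and 1.776 RPKM without overlap (−0.36, adjusted p = 0.111). E2f2 was at 1.658 and 1.74 RPKM with overlap.

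**Figure D3:**
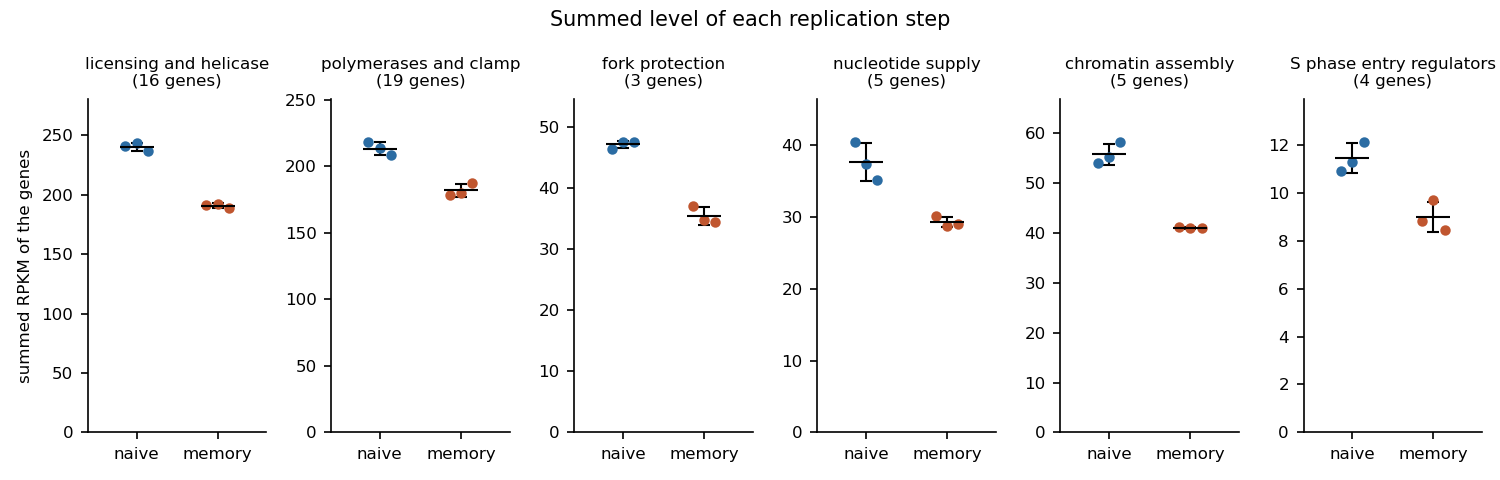
Summed level of the genes of each replication step (RPKM, y axes from 0 with their own scales) in 3 naive (blue) and 3 memory (red) libraries, with group means and bars of 1 SD. In all 6 steps the memory libraries lie below the naive libraries, with a change of the mean sum of −14.7% for polymerases and clamp and −26.5% for chromatin assembly.

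More of the abundant replication genes than of the scarce ones passed the test. Of the 19 genes at 10 RPKM or more in naive cells, 11 fell, and of the 32 below 10 RPKM, 4 fell. The median change was −0.33 in the former and −0.22 in the latter on the log2(RPKM + 1) scale, which shrinks the changes of low genes. As the change of the mean RPKM itself, the medians were −21.6% and −17.7%, and the largest falls, those of Cdc6 (−60.3%) and Mcm10 (−48.6%), were in genes below 10 RPKM. The spread between libraries was small, with a median coefficient of variation over the genes of 7.27% in naive and 5.89% in memory libraries. Relative to the naive mean, the median of the 51 genes was −0.25, −0.33 and −0.25 in the memory libraries, lowest in replicate 2. In the naive libraries it was between −0.01 and 0.01, which says little, as the naive mean is made of these same libraries. With 1 library left out, 7 to 10 genes fell, fewest without memory replicate 2 or 3 (7 each) and most without naive replicate 3 or memory replicate 1 (10 each), with 8 without naive replicate 2 and 9 without naive replicate 1. Mcm3, Mcm6, Mcm7, Pcna, Lig1, Clspn and Chaf1a passed in all 6 of these fits.

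**Figure D4:**
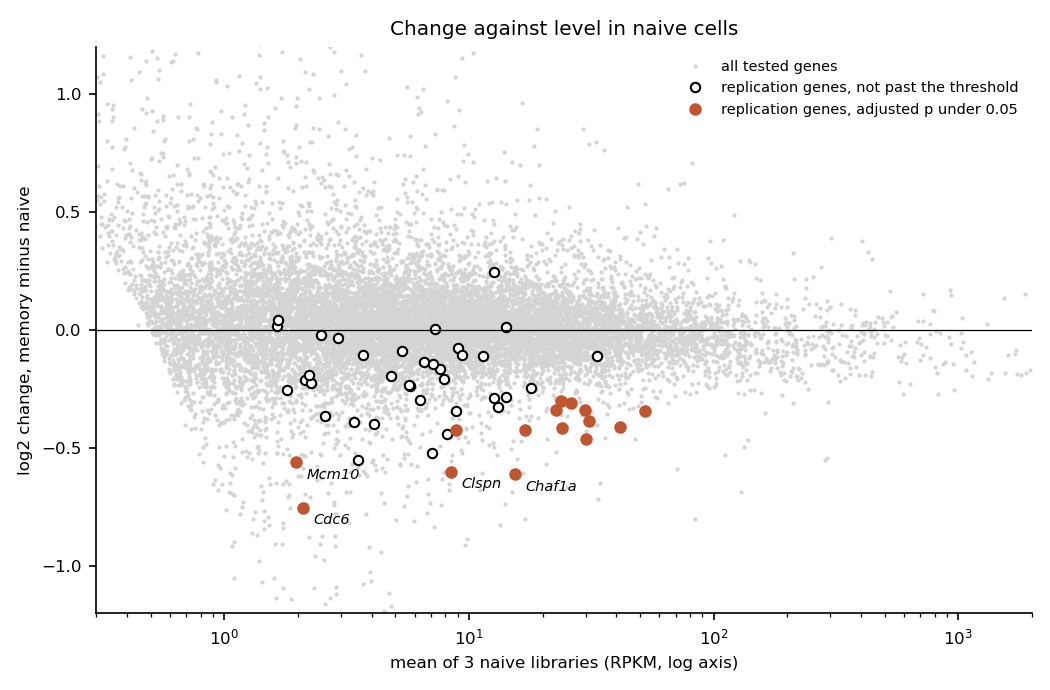
Difference of memory from naive in log2(RPKM + 1) against the mean of 3 naive libraries (RPKM, log axis) for all tested genes (grey) and the 51 replication genes (open, or filled where adjusted p was under 0.05). Genes beyond the axes, 308 of 13793, are not drawn. Of the 19 replication genes at 10 RPKM or more, 11 are filled.

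Other genes of these pathways, listed by function and not among the 52, were read from the same fit. Of 28 further replication factors tested, such as the other ORC subunits and polymerase subunits, 0 fell by limma-trend (3 had a negative change with an unadjusted p under 0.05, and voom called 2), and 15 had a negative change. The groups stood apart with memory lower in 6 of the 28, against 9.24% of all tested genes. They stood apart with memory higher in 3, against 14.9%. Their median was −0.01 and their sum was 335 to 346 RPKM in naive and 334 to 344 RPKM in memory libraries. The only one past the threshold was Dna2, a nuclease and helicase that trims flaps, which rose from 0.437, 0.652 and 0.539 to 1.449, 1.494 and 1.646 RPKM (0.72 ± 0.109, adjusted p = 0.0163). The difference between these factors and the 52 genes was not tested.

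Of 16 further nucleotide supply genes tested, 1 rose and 0 fell (6 with a negative change and an unadjusted p under 0.05, and 3 fell by voom). It was Samhd1, which breaks down deoxyribonucleotides in cells outside S phase, with 31.81, 32.25 and 32.25 RPKM in naive and 41.46, 41.4 and 39.93 RPKM in memory libraries (0.34 ± 0.036, adjusted p = 0.00339). The groups lay far apart, in the direction opposite to that of the 5 supply genes above. SAMHD1 is also abundant in myeloid cells, whose markers rose in the same libraries, and their part in this was not tested. Of 12 further chromatin assembly genes, 2 fell (6 with a negative change and an unadjusted p under 0.05, and 4 fell by voom). Uhrf1, which reads hemimethylated DNA behind the fork, measured 7.874, 8.519 and 8.567 against 5.703, 5.2 and 4.034 RPKM (−0.65 ± 0.113, adjusted p = 0.0277). Dnmt1, the maintenance DNA methyltransferase, measured 80.75, 82.86 and 84.21 against 73.73, 72.81 and 72.62 RPKM (−0.18 ± 0.032, adjusted p = 0.0341). Both stood apart without overlap, UHRF1 being the factor that brings DNMT1 to new DNA.

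Of 19 further regulators of the passage from G1 to S tested, none passed in either direction by limma-trend (4 lower and 3 higher at an unadjusted p under 0.05, 2 and 3 by voom), and the median was −0.07. Of 25 mitosis genes, 2 fell, where 0.972% of all tested genes fell, and the change was below 0 in 20 (median −0.12). A negative change with an unadjusted p under 0.05 was seen in 6, and voom called 5 lower. The groups stood apart with memory lower in 7 and with memory higher in 0, against 9.24% and 14.9% of all tested genes. Tpx2, a spindle assembly factor, measured 9.926, 9.471 and 9.511 RPKM in naive and 6.974, 6.784 and 6.549 RPKM in memory libraries (−0.45 ± 0.056, adjusted p = 0.00654). Top2a, which untangles chromosomes, measured 22.84, 21.78 and 23.03 against 19.07, 17.81 and 17.95 RPKM (−0.29 ± 0.048, adjusted p = 0.0226). Neither pair of groups overlapped. The mitosis genes summed to 138 to 142 RPKM in naive and 115 to 120 RPKM in memory libraries, a change of −15.8%.

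Promoters were at hand for 42 of the 52 genes, with 48 promoters of 250 bases before to 50 after the start. The 10 others were Mcm4, Gins1, Gins2, Gins4, Prim2, Pole, Rfc2, Tipin, Atad2 and Ccne2. The E2F letters were found in 16 of the 48 (33.3%), against 4.03% of 10840 promoters of all tested genes and 2.26% of all 32851 promoters. Of the 15 genes that fell, 12 had a promoter, and 8 of these 12 held the letters (8 of their 15 promoters, 53.3%). Of the tested genes that did not pass, 29 had a promoter, and 7 held them (7 of 32 promoters, 21.9%). Of the 28 further replication factors, 24 had a promoter, and the letters were in 8 of their 29 promoters (27.6%), which belong to 7 genes. Limma-trend called 0 of the 28 lower and voom 2. The shares in replication genes were thus above that of all tested genes and highest in the genes that fell. No test of these shares was made, and a gene that did not pass may still have changed.

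The positions varied. Before the start they lie 110, 106 and 47 bases away in Mcm6, 153 and 149 in Mcm5, 138 in Cdc6, 165 in Mcm7 (as GCGGGAAA) and 62 in Hells (as TTTCCCGC), counted to the first base of the match. After the start they begin at base 20 and 39 in Mcm3, 22 in Clspn, 27 in Lig1 and 17 in the same Mcm7 promoter, which are not among the printed bases. Of the 3 motifs searched, the CHR element (TTTGAA), known from genes of mitosis, was in 14.6% of the replication promoters and 12.5% of those of all tested genes, but in 77.3% of the 22 mitosis promoters, which held the E2F letters in 4.55%. CCAAT was in 56.2% of the replication promoters, 86.4% of the mitosis promoters and 37.8% of those of all tested genes. Of the E2F matches in replication genes, 1 overlapped a CCAAT. A match is a run of letters, not a shown binding site.

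**Figure D5:**
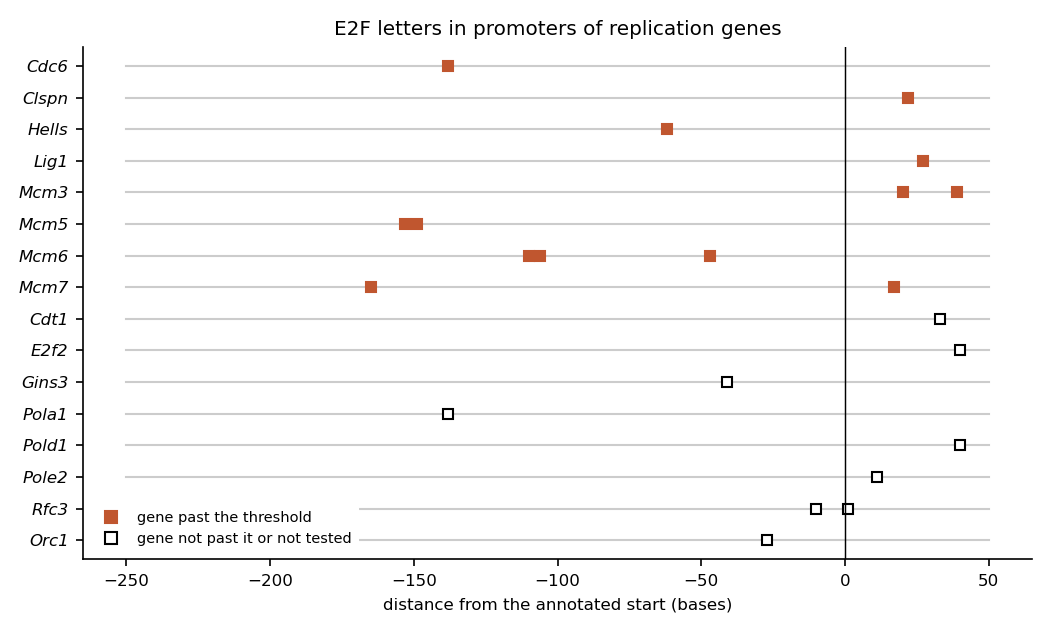
Distance of each match to the E2F letters from the annotated start (x axis, in bases) in the 16 replication genes that hold one, with grey lines for the promoter span from 250 bases before to 50 after the start. Genes with more than 1 promoter share a line, and filled squares, lying on both sides of the start, mark the 8 genes past the threshold.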

How the data were processed

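A single table was analysed, in which the values were deposited as RPKM by the authors with each gene's position and exon length, per the file headers. The library kit was a stranded one for mRNA, per the labels' protocols. Tools in the submitters' processing notes are edgeR 3.12.1, Subread 1.5.1, featureCounts and STAR 2.5.3a, with the build mm10 and no roles. No source used here gives the counting's strand setting or the annotation release. Reads recovered from RPKM and length were whole for 100% of values within 0.001, and 69.8% to 72.3% of counts from 1 to 10 were even, so reads are not independent molecules.

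The labels gave groups and replicate numbers. The test was limma-trend (limma 3.58.1, R 4.3.3) on log2(RPKM + 1). The 13793 genes whose mean reached 0.5 RPKM were tested, with Benjamini-Hochberg adjustment and a threshold of 0.05. It was tested on simulated data with changes larger than most of those reported here, so that run does not show how well smaller changes are found. Figures used Python 3.11.15 and matplotlib 3.10.9. RPKM is relative to each library's total, so a change is a change in share. Alternatives were pseudocounts of 0.1 and 0.5, no filter, a filter of 2 RPKM, median ratio scaling, quantile normalization, scaling without other cells' markers and the members, a robust prior, voom, a replicate block, and each library left out.

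The members and lists were chosen with earlier results of these data known. Values in every library are given for each member past the threshold and, per step, for the uncalled members with the highest level and the largest change, and for up to 4 genes past the threshold with the smallest adjusted p per pathway list. Rrm1, Prim2, the printed sequences of Mcm5 and Cdc6, and other values outside this rule were chosen after they were seen. Some listed markers were not analysed here.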

Additional observations from a re-analysis of the deposited data

How the results depend on the processing

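The 15 replication genes that fell kept a negative change in every alternative that tested them. The median change of the replication genes ran from −0.25 to −0.32, the last with voom on the recovered reads. Voom called 1145 genes in place of 575, 25 replication genes lower in place of 15 (2.49% of all genes were called lower), and 16 genes of the pathway lists lower in place of 4. The 10 further ones were Cdc45, Pola1, Prim1, Pole, Rpa1, Timeless, Rrm1, Rrm2, Dut and Ccne1. Without 1 library, 275 to 387 genes, 7 to 10 replication genes and 1 to 4 pathway genes were called, on fewer samples. A filter of 2 RPKM left 13 in place of 20 markers of other cells called higher, with fewer genes tested. Median ratio scaling called 19 replication genes lower and quantile normalization 18. With the replicate block 271 genes, 6 replication genes and 1 pathway gene were called. Same-numbered libraries deviated with correlations of −0.084, −0.04 and −0.003. These give no sign that the numbers pair them, but so few libraries per group cannot exclude it. Orc1 was under the filter at 12 to 36 reads per library. Apart from the fewer samples or genes named, the cause of these differences was not tested.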
